A study of Mus musculus with 2 samples.

Results

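En1, Dbx2, Foxc2, Tox3, Sp5, Eomes, Pax7, Sox3, Foxo1 and Taf4b are 10 developmental transcription regulators that were read here in cultured mouse spermatogonia. They are 10 of the 26893 named genes, were matched by gene symbol, and all 10 were found in both libraries. The members were chosen by measured values of these same data, namely their shares of cells, their co-detection and their ratios between the libraries. These are therefore descriptions, with no test. Single-cell libraries of 2 groups were used, 1 library each, both from C57BL/6 adult testis cells selected for the surface protein THY1, a way to enrich undifferentiated spermatogonia. Both cultures grew on mitomycin-treated SNL76/7 embryonic fibroblasts in serum-free medium with GDNF and bFGF. They were then lifted off that layer and treated on plastic for 24 h with 75 pmol of siRNA and 2 uL of Lipofectamine. The control siRNA had no target, and the other targeted Chd4, which encodes a chromatin remodelling ATPase found in NuRD. Both libraries are therefore of cells treated with this transfection reagent. Cells of 3 biological replicates were pooled before capture in each group, so the replicates cannot be told apart and every difference compares 2 libraries.

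Undifferentiated spermatogonia hold the stem cells of the male germline, which divide to renew themselves or enter a progenitor state that leads to meiosis. GDNF, acting through its receptor Ret, sustains renewal and drives genes such as Etv5, Bcl6b and Lhx1. Several of the 10 factors are best known from embryo patterning and have been used to mark subsets of spermatogonia, among them Eomes, Pax7 and Foxc2. Foxo1 and Taf4b are instead known as general requirements for keeping the stem cell pool, and Sox3 for forming progenitors.

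Cells with more UMIs (unique molecules counted) of the germ cell genes Dazl and Ddx4 than of the fibroblast genes Col1a1 and Fn1 were taken as germ cells. This gave 728 germ and 79 feeder cells among 816 complete cells of the control library, and 760 and 89 among 860 of the Chd4 siRNA library. Germ cells had medians of 15282 and 15581.5 UMIs and feeder cells 38655 and 40805, so shares of cells are given after thinning each cell to 9000 UMIs, which kept 666 and 697 germ cells. Chd4 itself stood at 535.8 CPM (UMIs of a gene scaled to the total of the cell class) in control germ cells and 252.9 in the Chd4 siRNA library, a ratio of 0.472. Intervals are 95% intervals that cover counting error only, and they treat UMIs as independent. Sums of UMIs per library cannot separate fewer cells with a gene from less RNA per cell.

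Start regions are shown for the 3 members whose promoters held motifs that few promoters hold, as context for the members that were spread most unevenly or co-detected. RefSeq promoter sequence on GRCm38.p6 matched 7 of the 10 members. For En1 the RefSeq start lies past the mm10 gene start of 120602418 given below, so the end of its window falls inside that gene span. The 250 bases before each RefSeq start follow, all on the plus strand and written 5′ to 3′, with 5 of the motifs searched in capitals.
En1, chr1:120602237-120602486: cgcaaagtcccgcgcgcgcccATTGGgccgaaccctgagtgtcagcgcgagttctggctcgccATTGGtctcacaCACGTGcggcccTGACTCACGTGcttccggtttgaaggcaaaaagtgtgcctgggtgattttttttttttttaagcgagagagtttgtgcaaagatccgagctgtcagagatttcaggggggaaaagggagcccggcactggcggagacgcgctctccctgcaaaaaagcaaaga
Sp5, chr2:70474673-70474922: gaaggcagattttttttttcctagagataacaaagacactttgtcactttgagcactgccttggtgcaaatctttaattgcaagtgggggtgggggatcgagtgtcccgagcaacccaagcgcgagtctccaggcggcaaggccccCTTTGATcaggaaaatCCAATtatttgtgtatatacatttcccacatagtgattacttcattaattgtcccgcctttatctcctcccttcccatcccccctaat
Eomes, chr9:118477939-118478188: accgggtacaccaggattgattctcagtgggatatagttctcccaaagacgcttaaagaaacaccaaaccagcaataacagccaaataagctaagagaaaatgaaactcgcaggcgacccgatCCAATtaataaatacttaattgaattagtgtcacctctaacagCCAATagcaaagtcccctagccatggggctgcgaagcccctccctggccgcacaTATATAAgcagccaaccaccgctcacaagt
In all, 13 motifs were searched on both strands in the windows of all 7 members, and 5 of the 13 matched none of them. The En1 window held CCAAT at 2 places, the E-box CACGTG at 2 places and the AP-1 motif TGACTCA at 1 place, where it overlaps the second E-box. CCAAT is found in 33.8% of the 32851 promoter windows of that length, CACGTG in 6.02% and TGACTCA in 4.46%. The Sp5 window held CTTTGAT, a core of the TCF/LEF motif of Wnt signalling found in 3.21% of windows, and 1 CCAAT. The Eomes window held 2 CCAAT and, 30 bases before the start, TATATAA, found in 3.04% of windows. These matches are letters in a window and were not read out by any binding data here. The others searched were the TATA box TATAAA (12.4% of windows), the shorter TCF/LEF core CTTTGA (13.8%), the ETS motif GGAAGT (19.7%) and the GC box GGGCGG (32.7%), with the longer ETS form CCGGAAGT (2.88%), the homeodomain motif TAATTA (4.84%) and the forkhead forms GTAAACA (3.17%) and TTGTTTAC (1.07%). Of these, the Sp5 window held CTTTGA at 2 places, 1 of them inside CTTTGAT.

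Levels in germ cells fell into tiers. En1, an engrailed homeobox factor of the midbrain and limb (chromosome 1, 120602418 to 120607992, mm10), had 1044 control and 833 Chd4 siRNA UMIs, or 90.0 and 68.0 CPM. Foxo1, the forkhead factor held in check by PI3K-AKT (chromosome 3, 52268336 to 52353221), had 924 and 1054 UMIs, or 79.6 and 86.0 CPM. Their intervals just overlapped in the control library, 84.6 to 95.6 CPM for En1 and 74.6 to 84.9 for Foxo1. In the other library Foxo1 was the higher, 80.9 to 91.4 beside 63.5 to 72.8. CPM counts transcripts at the 3′ end and is not divided by length, so the order is one of captured molecules.

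A middle tier held Foxc2 and Taf4b. Foxc2, a forkhead factor of mesenchyme and lymphatic vessels (chromosome 8, 121116171 to 121118895), had 574 and 479 UMIs, or 49.5 and 39.1 CPM. Taf4b, a gonad-enriched subunit of the general transcription factor TFIID on chromosome 18, had 542 and 565 UMIs, or 46.7 and 46.1 CPM. Their intervals overlapped in both libraries, 45.5 to 53.7 CPM for Foxc2 and 42.9 to 50.8 for Taf4b in the control library, so this pair is not ordered.

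A low tier held Sp5, Tox3 and Dbx2. Sp5, a zinc finger factor induced by Wnt signalling (chromosome 2, 70474923 to 70477729), had 198 and 271 UMIs, or 17.1 and 22.1 CPM. Tox3, an HMG-box factor (chromosome 8, 90247040 to 90348343), had 177 and 145 UMIs, or 15.3 and 11.8 CPM. Dbx2, a homeobox factor of spinal cord interneurons (chromosome 15, 95623563 to 95655960), had 166 and 189 UMIs, or 14.3 and 15.4 CPM. The 3 intervals overlapped in the control library, whereas Sp5 stood above Dbx2 and Tox3 in the Chd4 siRNA library.

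The rarest were Eomes, Sox3 and Pax7. Eomes, a T-box factor of early embryo and cortex (chromosome 9, 118478212 to 118486132), had 80 and 78 UMIs. Sox3, an HMG-box factor on the X chromosome (60891366 to 60893430), had 76 and 97 UMIs. Pax7, the paired-box factor of muscle satellite cells (chromosome 4, 139737062 to 139833528), had 41 and 34 UMIs, or 3.53 and 2.78 CPM, the lowest level of the 10 in both libraries. The ordering of Eomes and Sox3 was within counting error in both.

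**Figure D1:**
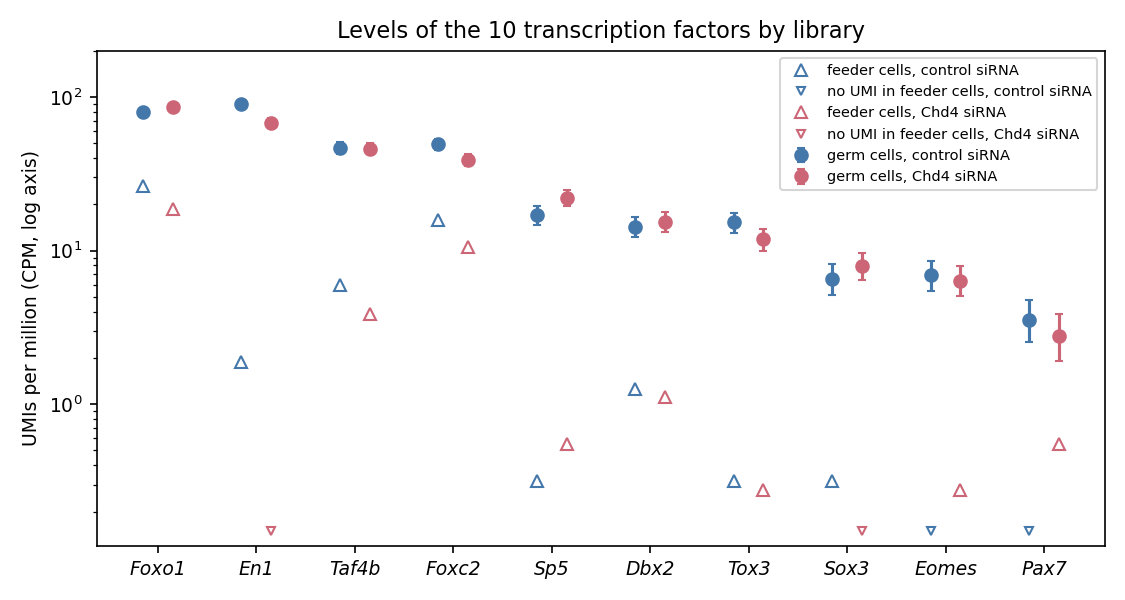
CPM (log axis) of each member in germ cells (filled circles, bars are 95% Poisson intervals) and feeder cells (open triangles pointing up) of the 2 libraries, ordered by total UMIs. Triangles pointing down mark feeder cells with no UMI, and germ cells run from 90.0 CPM for En1 in the control library down to 2.78 for Pax7 in the Chd4 siRNA library.

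Most members were germ cell transcripts in these cultures. By the yardstick that follows, 2 were shared with the feeder layer, Taf4b was less clear and Pax7 could not be placed. As a yardstick for RNA shared between droplets, 10 germ cell markers other than Dazl and Ddx4 stood in feeder cells at 1.22% to 17.0% of their germ cell level in the control library and at 1.61% to 14.6% in the other. En1 stood at 2.1%, with 6 feeder UMIs in the control library, and had none in the Chd4 siRNA library. Tox3 and Sp5 stood at 2.07% and 1.85% of their germ cell level in the control library, each with 1 feeder UMI. Foxc2 stood at 31.8% and 26.9%, with 50 and 38 feeder UMIs, and Foxo1 at 33.2% and 21.6%, with 84 and 67. Both were above all 10 of these markers in each library, and Foxo1 was found in 21.3% and 15.5% of thinned feeder cells. Dbx2 (8.81% and 7.19%) and Taf4b (12.8% and 8.42%) lay inside the range of the markers. The top of that range was Etv5 alone, at 17.0% and 14.6%. Taf4b, with 19 and 14 feeder UMIs, was above all the other markers in each library. Eomes, Sox3 and Pax7 had at most 2 feeder UMIs in either library.

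Close relatives of the members split between the cell types. Of 39 related genes that were listed, 28 had at least 20 UMIs in germ cells. En2, the other engrailed gene, had 0 and 1 germ cell UMIs, and Dbx1, the sister of Dbx2, also had 0 and 1. Foxc1, the sister of Foxc2, had 4 and 1 UMIs in germ cells but 38 and 33 in the far fewer feeder cells. Pax3, the sister of Pax7, had 1 and 2 in germ cells and 35 in the feeder cells of each library. Among the germ cells, the factors present from each family were therefore En1, Dbx2 and Foxc2 rather than these sisters, and for Pax7 the germ cell count was itself small.

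Taf4b and its housekeeping relative Taf4a changed places between the cell types. In germ cells Taf4b had 8.47 UMIs for each UMI of Taf4a with the control siRNA and 8.19 with the Chd4 siRNA. In feeder cells the same ratios were 0.633 and 0.424. Taf4a had 64 and 69 germ cell UMIs and 30 and 33 feeder UMIs, so its CPM was higher in feeder cells. Other families were less exclusive. Foxo3, which shares targets with Foxo1, had 55.5 and 55.6 CPM in germ cells, Sox4 had 277.5 and 276.5, and Sox2 had 7.67 and 8.73, beside 6.55 and 7.92 for Sox3. Brachyury (T), a T-box relative of Eomes that GDNF induces, had 17.6 and 18.7 CPM beside 6.89 and 6.37 for Eomes.

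At equal depth, the members differed widely in how many germ cells showed them. Foxo1 was found in 333 of 666 control germ cells (46.1% to 53.9%) and 52.8% of Chd4 siRNA germ cells. En1 was found in 41.1% and 35.7%, although its control CPM was above that of Foxo1. Taf4b was found in 31.8% and 34.1%, and Foxc2 in 31.5% and 27.1%. Dbx2 (12.9% and 13.8%), Tox3 (11.9% and 9.33%) and Sp5 (10.2% and 14.1%) came next. Eomes (6.31% and 4.16%), Sox3 (5.26% and 5.45%) and Pax7 (1.65% and 1.87%) were in the fewest cells. Without thinning, En1 was in 51.2% and 45.9% of germ cells and Foxo1 in 65.7% and 69.5%. In thinned feeder cells En1 was in 2.67% and 0 of 84 cells. A count of 0 allows a share of up to 3.57% by a limit of 3 counts in 84 cells. Foxc2 was in 8.0% and 13.1% of thinned feeder cells and Taf4b in 5.33% and 3.57%.

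En1 had fewer positive cells than its level would give if every germ cell carried the same chance of a UMI. In the control library 274 cells had En1, where a Poisson spread with the same mean gives 380.0. Its UMIs were in few cells: 19 control and 10 Chd4 siRNA germ cells had at least 5 thinned UMIs, and the richest cells had 26 and 13 UMIs before thinning. The variance of En1 UMIs over cells was 2.39 and 1.84 times their mean (the Fano factor, 1 for a Poisson spread). Its counting intervals are therefore too narrow. Foxo1, at a similar level, had 1.13 and 1.06, and Taf4b 1.03 and 1.04.

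Sp5 was also uneven, with a variance 1.56 and 1.68 times its mean and up to 9 UMIs in a cell. Foxc2 had 1.28 and 1.18, Tox3 1.18 and 1.25, and Dbx2 1.11 and 1.02. Sox3 had 1.57 in the Chd4 siRNA library, where 50 thinned UMIs were counted. In all, 3 members reached 1.2 in the control library (En1, Foxc2 and Sp5) and 4 in the other (En1, Tox3, Sp5 and Sox3). Among all genes with at least 50 thinned UMIs, 18.1% reached 1.2 in the control library and 18.6% in the other. Eomes and Pax7 had fewer UMIs than that in both libraries, and Sox3 in the control library. At 5000 UMIs per cell 1 member (En1) reached 1.2 in the control library and 2 (En1 and Sp5) in the other. The share of all genes past 1.2 was not computed at that depth, so these counts have none beside them. In the control library En1 ranked above 98.5% of genes with at least 50 thinned UMIs at 9000 UMIs and above 98.0% at 5000. Sp5 ranked above 95.6% and 79.7%.

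**Figure D2:**
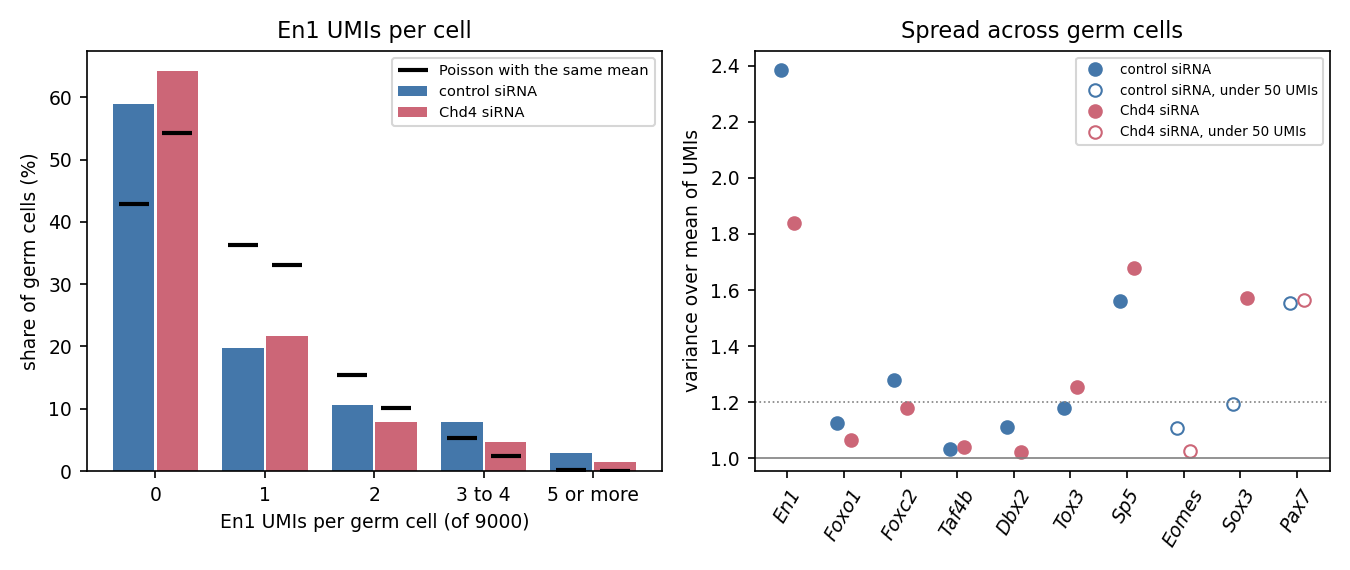
Left, share of germ cells by En1 UMIs per cell after thinning to 9000 UMIs (bars) beside a Poisson spread with the same mean (black marks). Right, variance over mean of UMIs per germ cell for each member, with lines at 1 and 1.2 and open circles for members with under 50 UMIs. En1 stands at 2.39 with the control siRNA and 1.84 with the Chd4 siRNA, with more empty cells and more cells of 5 or more UMIs than the Poisson marks.

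Members were found together about as often as their shares give, with 1 pair above that in both libraries. Of 45 pairs, 24 had at least 10 cells from the product of the shares in each library. En1 and Eomes were found together in 28 control cells, where the shares give 17.3, and in 19 Chd4 siRNA cells, where they give 10.4. These are 1.62 times (1.08 to 2.34) and 1.83 times (1.10 to 2.86). Eomes was in 10.2% of En1-positive control cells and 3.57% of the others, and in 7.63% and 2.23% in the Chd4 siRNA library. That was the 1 pair with at least 1.25 times in both libraries, and 0.904% of all gene pairs with shares in the range of the members met this, so a single pair in 24 is a small count to read. Without thinning, where depth differs between cells, 35 pairs had at least 10 cells from the shares in each library. Of these 22 were above 1 in both libraries, beside 8 of the 24 at 9000 UMIs. The ratios of En1 and Eomes were then 1.34 and 1.51. The pairs of Tox3 with Sp5 (1.67 and 1.55) and of Sp5 with Eomes (1.71 and 1.99) met the rule as well. How many of all gene pairs meet the rule without thinning or at 5000 UMIs was not computed. At 5000 UMIs En1 and Eomes had 1.64 and 2.33 but under 10 cells from the shares, and the 1 pair that met the rule was En1 with Sp5 (1.40 and 1.56).

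En1 and Sox3 were the 1 pair found together less often by the rule of at most 0.8 times in both libraries, which 1.22% of all gene pairs met. They shared 9 cells against 14.4 from the shares and 10 against 13.6, and both intervals include 1 (0.63, 0.29 to 1.19, and 0.74, 0.35 to 1.35). Without thinning the ratios were 0.85 and 0.93. En1 and Foxc2 were the most abundant members with a Fano factor of at least 1.2 in the control library. They shared 101 cells against 86.4 and 83 against 67.5, or 1.17 times (0.95 to 1.42) and 1.23 times (0.98 to 1.52). By En1 UMIs per cell, Foxc2 was found in 27.8% of control cells with none, 33.3% with 1, 39.8% with 2 to 4 and 42.1% of the 19 cells with 5 or more. The same shares with Chd4 siRNA were 23.7%, 32.5%, 33.0% and 5 of 10 cells. These grades were set after the data were seen, and the Foxc2 intervals of neighbouring grades overlap. Every other member was graded as well, and a steady rise was not shared by all. By the same grades Eomes was in 3.57%, 12.1%, 7.32% and 15.8% of control cells. With Chd4 siRNA it was in 2.23%, 5.96%, 7.95% and 30%. Taf4b was in 32.7%, 28.8%, 33.3% and 26.3% of control cells, and in 32.6%, 40.4%, 31.8% and 30% with Chd4 siRNA. The even members Foxo1 and Taf4b shared 0.95 and 0.94 times the number from their shares. Control germ cells carried 2.03 of the 10 members on average and Chd4 siRNA germ cells 1.98. In each library 21 cells carried 5 or more members, where independent members give 14.3 and 13.5.

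**Figure D3:**
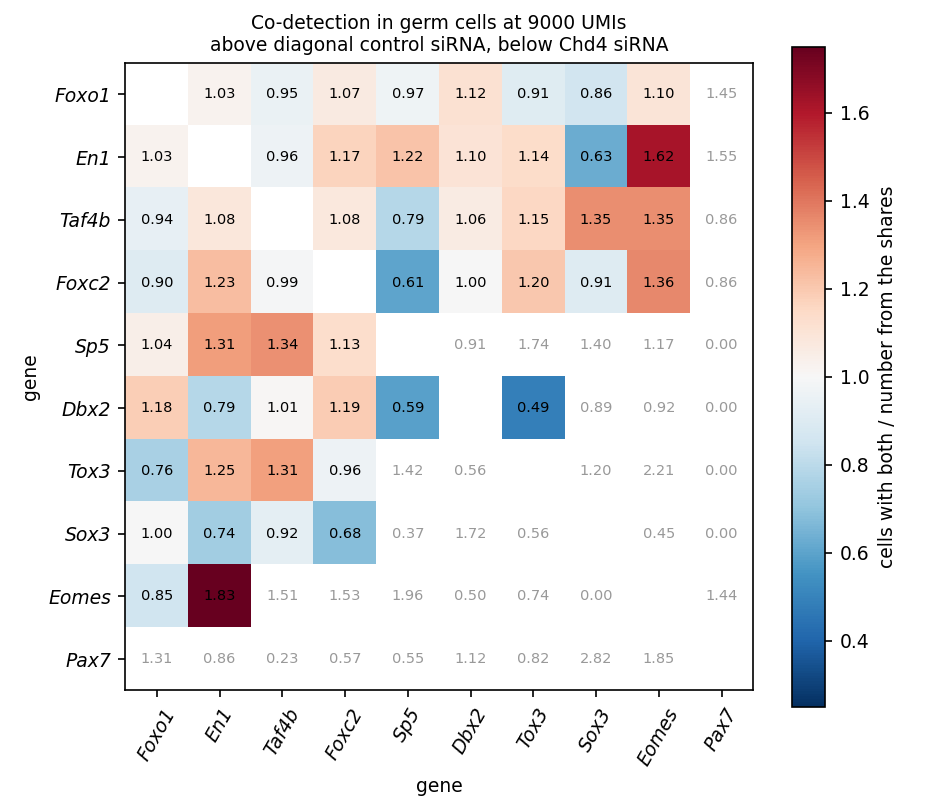
Number of germ cells with both genes of a pair over the number from their shares, in the control library above the diagonal and the Chd4 siRNA library below it, at 9000 UMIs per cell. Coloured cells have at least 10 cells from the shares, grey numbers fewer, and En1 with Eomes stands at 1.62 and 1.83.

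Genes of the self-renewal and GDNF-responsive list tended to be higher in cells with En1. All 18 lists were read against all 10 members, 180 combinations in each library that use the same cells, and those described were picked after their values were seen. In En1-positive over En1-negative control cells, 11 of 20 measured genes of this list had an interval above 0 and 1 below, with a median log2 ratio of 0.33 beside 0.03 for all genes. In the Chd4 siRNA library 9 were above and 1 below, with a median of 0.20 beside -0.01. Over all genes with at least 50 thinned UMIs, 5.68% and 4.24% were above 0. Listed genes are mostly well expressed, and intervals are narrower for such genes, so the counts are not on equal terms.

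Of this list, 7 genes had an interval above 0 in En1-positive cells of both libraries. Spry4, a feedback inhibitor of receptor tyrosine kinase signalling, had a log2 ratio of 1.06 (0.54 to 1.58) in control cells and 0.77 (0.20 to 1.34) in Chd4 siRNA cells. Brachyury (T) had 0.94 (0.37 to 1.52) and 0.63 (0.06 to 1.2). Bcl6b had 0.43 and 0.75, Lhx1 0.35 and 0.86, Egr2 0.56 and 0.45, Dusp6 0.54 and 0.40, and Etv5 0.34 and 0.37. They are named for their values in these cells. Ret, the GDNF receptor, had 0.35 (0.10 to 0.60) in the control library but 0.06 (-0.19 to 0.32) in the other. Nanos2 (-0.21 and -0.35), Id4 (0.06 and 0.23) and Zbtb16 (0.05 and 0.10), other genes used as stem cell or undifferentiated state markers, had intervals that include 0 in both. Fos had -0.56 (-1.04 to -0.09) in the control library and 0.48 (0.05 to 0.91) in the other, so it changed sign.

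Some progenitor and stress genes were lower in En1-positive cells. In En1-positive cells 3 of 7 measured progenitor genes had an interval below 0 in each library, with median log2 ratios of -0.35 and -0.28, beside 3.63% and 4.83% of all genes below 0. Sohlh1, a factor of spermatogonial differentiation, had -0.24 and -0.28, Ddit4 -0.38 and -0.39, and Egr4 -0.42 and -0.31. Ccnd2, a gene of the differentiating list, was instead higher in En1-positive cells, at 0.47 (0.38 to 0.56) and 0.40 (0.31 to 0.50). Ccnd2 is named for its value in these cells and does not stand for that list of 12 genes. The rest of the list is not described for En1, so no direction is read for the list. Of the stress response genes 3 of 8 and 4 of 10 were below 0, among them Atf4 (-0.50 and -0.21) and the chaperone gene Hspa5 (-0.44 and -0.23). En1-positive and negative cells had similar depths before thinning, medians of 15248.5 and 15961 UMIs in the control library and 16162 and 16054 in the other. Feeder marker levels were 89.6 and 93.8 CPM, and 85.7 and 102.7. The part of feeder RNA in these ratios was not tested. Chd4 itself was higher in cells with En1. In the Chd4 siRNA library it stood at 226.2 CPM (211.7 to 241.4) in cells with no En1 UMI, 323.8 (294.2 to 355.5) with 1, 298.0 (261.2 to 338.5) with 2 to 4 and 366.7 (252.4 to 514.9) with 5 or more. In the control library the same levels were 501.7, 569.9, 577.2 and 713.5 CPM. The part of Chd4 level in the En1 results was not tested.

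**Figure D4:**
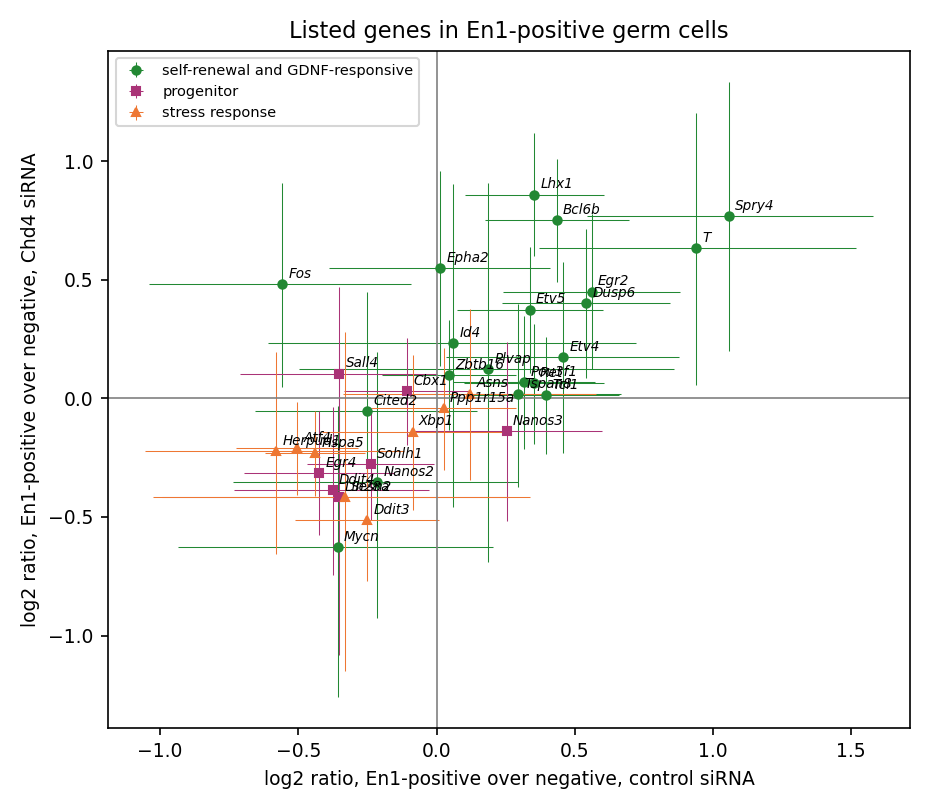
Log2 ratio of each measured gene of 3 lists in En1-positive over En1-negative germ cells, control library on the x axis and Chd4 siRNA library on the y axis, with 95% counting intervals. Spry4, T, Bcl6b, Lhx1, Egr2, Dusp6 and Etv5 lie in the upper right, and Sohlh1, Ddit4, Egr4, Atf4 and Hspa5 in the lower left.

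Some mitotic genes were lower in Foxc2-positive cells of both libraries. Of 19 G2/M genes 6 had an interval below 0 in each library and none above, with medians of -0.29 in both, beside 3.16% and 3.37% of all genes below 0. Top2a, the DNA topoisomerase of dividing cells, had -0.40 (-0.62 to -0.17) and -0.30 (-0.53 to -0.07). Ube2c had -0.36 and -0.62, and Cenpf -0.26 and -0.34. Mki67, the proliferation marker, had -0.63 (-1.18 to -0.10) in the control library and -0.14 (-0.66 to 0.36) in the other. Before thinning, Foxc2-positive cells had fewer UMIs than negative cells. The medians were 15110.5 and 15961 in the control library and 15303 and 16455 in the other. The part of depth in these ratios was not tested. Of the self-renewal list 5 and 4 of 20 genes were above 0, beside 5.31% and 4.65% of all genes. Egr2 (0.61 and 0.56) and Tcl1 (0.43 and 0.34) were above in both, and Mycn (-1.19) and Nanos2 (-0.71) were below in the control library.

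In Sp5-positive and Tox3-positive cells, both few, the self-renewal list was read as well. Sp5 was in 68 and 98 thinned cells. Of the self-renewal list 3 and 7 of 20 genes were above 0 in Sp5-positive cells, beside 2.84% and 3.91% of all genes. Lhx1 (0.55 and 0.53), Pou3f1 (0.56 and 0.44) and Epha2 (0.63 and 0.66) were above in both libraries. Of the stress genes 3 of 8 and 4 of 10 were below 0, beside 3.37% and 4.64% of all genes, and Atf4 had -0.39 and -0.48. The 4 measured Wnt target genes had medians of 0.08 and -0.23, with none of their intervals above 0 and 1 below it in the control library.

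Tox3 was in 79 and 65 thinned cells. There 3 and 7 of 20 self-renewal genes were above 0, beside 3.06% and 3.18% of all genes. Brachyury (T) had 1.05 (0.33 to 1.72) and 1.23 (0.47 to 1.93), and Dusp6 0.65 and 0.79. Of the 7 progenitor genes 3 and 1 were below 0, beside 3.17% and 4.06% of all genes, and Egr4 had -0.95 and -0.58. The G2/M list differed between the libraries, with a median of -0.04 in the control library and -0.52 in the other.

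Some stress genes were higher in Dbx2-positive cells. Of these 4 of 8 and 3 of 10 had an interval above 0 and none below, with medians of 0.40 and 0.34, beside 5.90% and 7.02% of all genes above 0. Ddit3, a factor of the unfolded protein response, had 0.57 (0.23 to 0.89) and 0.69 (0.40 to 0.96), and Hspa5 0.45 in both libraries. Of the self-renewal genes 3 and 2 of 20 were below 0, beside 6.11% and 3.82% of all genes, with medians of -0.36 and -0.02. Of the S phase genes 6 and 4 of 19 were below 0. Of the G2/M genes 9 of 19 were below 0 in the control library and none in the other, so that pattern was not seen again.

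Eomes and Sox3 were each read over few cells. Eomes was in 42 and 29 thinned cells. There 7 and 6 of 20 self-renewal genes were above 0, beside 3.78% and 5.01% of all genes, with medians of 0.47 and 0.45. Lhx1 had 0.53 and 0.96 there. Sox3 was in 35 and 38 cells. There 7 and 5 of 20 self-renewal genes were below 0, beside 3.17% and 2.72% of all genes, with medians of -0.56 and -0.40. Bcl6b had -3.18 (-5.47 to -1.63) and -1.51 (-2.58 to -0.62), and Tcl1 -0.78 and -1.74. Zbtb16 was above 0 in Sox3-positive cells of both libraries, at 0.62 (0.15 to 1.05) and 0.68 (0.26 to 1.08).

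Foxo1 and Taf4b were read in the same way. In Foxo1-positive cells 4 and 2 of 7 progenitor genes were above 0, beside 6.01% and 5.41% of all genes. Sohlh1 had 0.63 (0.40 to 0.86) and 0.42 (0.20 to 0.64), and Nanos3 changed from -0.34 to 0.68. The FOXO target and PI3K-AKT list had medians of 0.06 and 0.17, with 2 and 1 of 13 genes above 0. In Taf4b-positive cells 6 and 3 of 20 self-renewal genes were above 0, beside 3.71% and 4.44% of all genes, and Tspan8 had 0.45 and 0.41. The other TFIID subunits had medians of -0.02 and 0.09, with none of 11 and 12 above or below 0.

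**Figure D5:**
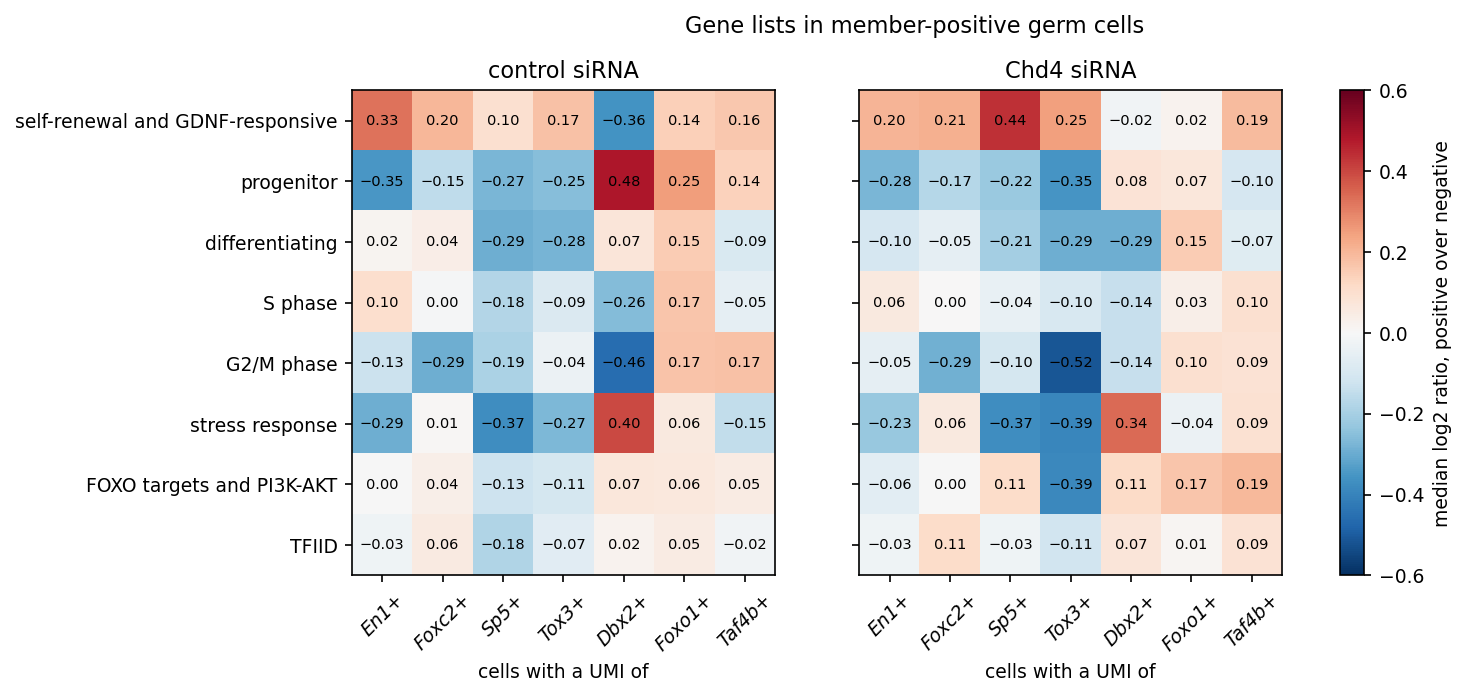
Median log2 ratio of 8 gene lists in germ cells with a UMI of a member over those without, in each library, for the 7 members with the most positive cells. The self-renewal row is 0.33 and 0.20 for En1, the stress row 0.40 and 0.34 for Dbx2, and the G2/M row -0.29 in both libraries for Foxc2.

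The number of single genes most like a member that were also higher in the other library differed with thinning. For 8 members, the 3 genes with the highest lower bound in the control library were read in the other. Of these 24 genes 7 had a log2 ratio of at least 0.3 there, beside 14.9% of all genes over the 8 members. Chosen and read without thinning, 19 of 24 did, in cells of unequal depth. The share of all genes was not computed without thinning, so the 19 have none beside them. For En1 they were Nrp1, Cklf and Mid1, with 1.70, 1.42 and 1.43 in the control library and 0.61, 0.00 and -0.32 in the other. Hoxb8, a posterior homeobox gene, in Sp5-positive cells was among the 7, at 1.01 (0.57 to 1.43) and 0.63 (0.20 to 1.04). Larp1b in Sox3-positive cells was another, at 2.27 (1.16 to 3.26) and 1.5 (0.21 to 2.59). For Dbx2, Tox3 and Foxo1 none of the 3 genes reached 0.3 in the Chd4 siRNA library. Cd24a, first for Dbx2, changed sign from 1.98 (1.19 to 2.74) to -1.30 (-2.96 to -0.01).

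A ranking by the smaller lower bound of both libraries was added after the first had been seen, and it uses both libraries, so it gives no separate reading. It put Fst, which encodes the activin inhibitor follistatin, first for En1 (1.03 and 1.08) and second for Sp5 (0.92 and 1.03). Hoxb6 came first for Sp5 (1.08 and 0.95). Brachyury (T) came second for Tox3. Optn came second for Foxc2 (0.82 and 0.73), after Batf (0.72 and 0.67). Hmgn5 came first for Sox3 (1.52 and 1.36), Fam221a second for Dbx2 (1.07 and 0.89), Sohlh1 first for Foxo1, and Exosc2 first for Taf4b (0.52 and 0.41).

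Between the libraries, En1 and Foxc2 were lower and Sp5 higher with Chd4 siRNA. Ratios here set germ cell CPM after Chd4 siRNA over that after the control, on the log2 scale. En1 had -0.40 (-0.54 to -0.27), Foxc2 -0.34 (-0.52 to -0.16), Tox3 -0.37 (-0.69 to -0.04) and Pax7 -0.35 (-1.05 to 0.34). Sp5 had 0.37 (0.10 to 0.65). Thus 1 of 10 members was at 0.3 or above and 4 were at -0.3 or below, beside 13.0% and 11.2% of the 12901 genes with at least 20 UMIs. The interval was above 0 for 1 member and below 0 for 3, beside 13.9% and 6.78%. The rule used this contrast, and nothing is read from these counts.

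The other 5 members had intervals that include 0. Foxo1 had 0.11 (-0.02 to 0.24), Dbx2 0.11 (-0.20 to 0.42), Taf4b -0.02 (-0.19 to 0.15), Eomes -0.11 (-0.58 to 0.35) and Sox3 0.27 (-0.17 to 0.73). For Taf4b and Foxo1 these intervals leave out a change by the 0.3 of the fold rule in either direction, while for Dbx2, Eomes and Sox3 they do not. The median of all genes was 0.05, and the scaling factors of TMM and DESeq2 moved every ratio by -0.05 and -0.04.

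Shares of cells were also compared at 1 UMI and at 2 or more. En1-positive cells were 5.42 percentage points fewer (10.5 to 0.25 fewer) with Chd4 siRNA at 1 UMI and 7.26 points fewer (11.3 to 3.22) at 2 or more UMIs. Foxc2-positive cells were 4.42 points fewer (9.23 fewer to 0.42 more) at 1 UMI and 5.03 points fewer (7.88 to 2.27) at 2 or more. Sp5-positive cells were 3.85 points more (0.37 to 7.32) at 1 UMI and 2.93 points more (1.05 to 4.93) at 2 or more. Without thinning the interval of Sp5 included 0 (2.99 points, -0.92 to 6.88), and that of Foxc2 did not (-6.42, -11.4 to -1.39), nor at 5000 UMIs (-4.65, -8.66 to -0.66). The differences also depended on which UMIs were drawn. For Sp5, averaged over all draws it was 2.81 points at 9000 UMIs and 1.93 at 5000, while the single draw at 5000 gave -0.068. Averaged over draws at 9000 UMIs, Pax7 went from 0.21 points to -0.61 (shares of 2.61% and 2.00%), and Taf4b from 2.31 to -0.27.

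The lists were also compared between the libraries, where 13.9% of all genes had an interval above 0 and 6.78% below. Of 23 self-renewal genes 1 had an interval above 0 (Tcl1, 0.20) and 4 below, which were Cited2 (-0.61, -0.83 to -0.40), Pou3f1 (-0.27), Lhx1 (-0.19) and Nanos2 (-0.25). Of 12 stress genes 8 were above 0 and none below, with a median of 0.30, and Atf3 (0.97) and Nupr1 (1.0) had the highest ratios. Within each library some of these genes had intervals below 0 in En1-positive and Sp5-positive cells (3 of 8 and 4 of 10 for each member) and above 0 in Dbx2-positive cells (4 of 8 and 3 of 10). The part of this in the library differences of those members was not tested. Of 14 TFIID subunits 2 were above 0, Taf6 (0.30) and Taf9b (0.26), and 1 was below. That was Taf10, at -1.03 (-1.16 to -0.90), with 1390 and 719 UMIs, while Taf4b did not differ beyond counting error. None of the 28 measured relatives of the members had an interval that leaves out 0. In feeder cells Foxo1 had a ratio of -0.51 (-1.0 to -0.03), against 0.11 in germ cells, and En1 went from 6 UMIs to none. Foxc2 had -0.58 (-1.23 to 0.06) in feeder cells, over 50 and 38 UMIs, beside -0.34 in germ cells. Taf4b had -0.62 (-1.73 to 0.45) in feeder cells, beside -0.02 in germ cells.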

How the data were processed

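The authors deposited 1 matrix of whole UMI counts for each library, with genes in rows and cells in columns and no normalization, made with version 2 droplet chemistry per the labels' protocols. The submitters' processing notes name Cell Ranger 2.1.0, Seurat and mm10. The role of each and the filter on cells are not known here. Names were used for 26893 of 27998 matrix rows. The other rows, with 12.1% and 12.6% of UMIs, stayed out of totals. The last, incomplete cell of each matrix and 2 Chd4 siRNA cells under 1000 UMIs were left out, leaving 816 and 858. Scrublet in scanpy 1.11.5 marked 8 and 6 doublets, which were kept. Of 817 and 799 listed barcodes 1 was shared. Germ cell UMIs summed to 11605456 and 12251236.

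CPM is UMIs over the class total. Ratios have exact conditional binomial intervals, sums exact Poisson, shares Clopper-Pearson and share differences Newcombe intervals, at 95%. The limit given for a share of 0 is instead 3 counts over the number of cells. With 1 library a group no test was made. Positive cells have at least 1 UMI after thinning. TMM (edgeR 4.0.16) and DESeq2 1.42.0 factors served only for scaling. Ratio intervals, tested on simulated data for the library comparison with 200 of 26893 genes changed, covered the true value for 92% to 100% of genes by size of change, under the counting model they assume.

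The members and lists were chosen with earlier results of these data known. All members are described. From each list, up to 4 genes by level and up to 4 by distance of the interval from 0 could be named, and others were named after their values were seen. For genes like a member, the rule took 3 per member with at least 30 positive cells in each library. The pair limits of 1.25, 0.8 and 10 cells, and the 13 motifs, were set after the files were seen, and 8 of the motifs are not drawn in capitals.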

Additional observations from a re-analysis of the deposited data

How the results depend on the processing

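Each of the 10 library ratios was recomputed under 10 alternatives, and 97 of these 100 values stayed within the main counting interval with no reversal past the fold limit. In thinned cells Sp5 rose to 0.67 and Eomes went to -0.68, and Pax7 reversed to 0.21, over 14 and 17 UMIs. En1 ranged from -0.47 to -0.39, Foxc2 from -0.39 to -0.34 and Tox3 from -0.41 to -0.29. The Sp5 share difference reversed to -0.068 points in the single draw at 5000 UMIs. Fano calls at that depth were 1 and 2 members, with no share of all genes computed beside them. Of 8257 genes with at least 200 UMIs, 489 were past the fold limit higher (5.92%) and 361 lower (4.37%). Of 18411 genes with at least 1 UMI, 3890 were higher (21.1%) and 3746 lower (20.3%). Without thinning 3 of 35 pairs met the rule above their shares and 0 the rule below. At 5000 UMIs 0 of 15 pairs met the rule below, and En1 with Sp5 took the place of En1 with Eomes as the 1 pair above. The share of all gene pairs was not computed for these settings. Of 24 genes most like a member, chosen anew without thinning, 19 reached 0.3 in the Chd4 siRNA library, where depth differs between cells. No share of all genes was computed for that setting. Self-renewal medians without thinning were 0.34 for Foxc2 and -0.084 for Foxo1 in the Chd4 siRNA library, and 0.058 and 0.059 for Taf4b in the control and Chd4 siRNA libraries. The cause of these shifts was not tested. Members under 100 UMIs have intervals wider than most differences given. No paired analysis was possible because each group is 1 pooled library and the labels give no replicate numbers.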
